A study of Mus musculus with 27 samples.

Results

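Bone marrow-derived macrophages (BMDMs) that had met no ligand (naïve) were set against BMDMs stimulated for 4 h with 100 ng/ml lipopolysaccharide (LPS), the acute LPS group. The 6 arrays were taken by their titles, 3 naïve and 3 acute LPS, of 27 arrays in the series. All 6 cultures came from wild-type female C57BL/6 mice aged 6 to 8 weeks, and the marrow was grown for 7 days in medium conditioned by L929 cells, which supplies M-CSF. The remaining arrays carry BMDMs given CpG, Pam3CSK4 or Poly(I:C), and cells stimulated with a ligand a second time. The naïve cells received no stimulus and no mock treatment is described. The study's methods describe a replicate in one place as a different mouse and in another as an independent pool of marrow from several mice. The marrow was fresh or cryopreserved. A replicate is thus 1 culture, and each was read on its own slide, so the p-values measure the spread between cultures and slides together.

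LPS is a glycolipid of the outer membrane of Gram-negative bacteria that binds CD14 and the TLR4 and MD-2 complex on macrophages. TLR4 signals from the plasma membrane through the adaptors TIRAP and MyD88, which leads to NF-κB and MAP kinase activation and inflammatory cytokine transcription. From endosomes it signals through TRAM and TRIF to IRF3, which with NF-κB switches on the gene of interferon β, and secreted interferon then acts back on the cells through its own receptor.

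Each array holds probes of 60 bases, and values are log2 intensities as the authors normalized them, so a difference of 1 is a doubling. A probe was tested if it stood well above background on at least 2 of the 3 arrays of either group, which 29933 of 55681 probes did. Calls required an adjusted p from limma below 0.05 together with a difference of 1.5-fold or more. Where a gene had several tested probes, the probe with the highest mean is given, and its change is followed by its standard error (SE, 3 arrays against 3).

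Before the results, 3 properties of the arrays need stating. No slide held arrays of both groups: the 3 slides with acute LPS arrays had other scan days than the 3 with naïve arrays, and an earlier design file. Slide, scan day and stimulus therefore cannot be told apart here. LPS replicate 3 was also scanned on another day than LPS replicates 1 and 2. Naïve replicate 3 stood apart from the other naïve cultures: 74.6% of its probes were well above background, against 45.8% to 54.3% on the other 5 arrays. Its correlation with the other naïve arrays went down to 0.9582, while LPS replicates correlated at 0.9807 to 0.9923 and naïve with LPS arrays at 0.9164 to 0.9307. Where leaving it out changed the call of a gene described below, or moved its change by over 1.5-fold, the value without it is given too. Cell type markers and changes given as bounds are excepted. Of 215 called genes on the lists or named below, 39 moved that far.

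The macrophage label was checked with 8 macrophage markers, and all 8 were well above background. Their summed intensity was 19.56 to 19.60 log2 units on the naïve arrays and 18.86 to 19.02 on the LPS arrays, and 4 of them (Csf1r, Cd68, Lyz2 and C1qa) were called lower after LPS. Of 8 neutrophil markers, all were tested, and their summed level was 16.17, 16.75 and 12.35 on naïve replicates 1 to 3 and 11.71, 12.21 and 12.31 on the LPS arrays. Naïve replicates 1 and 2 were thus the arrays with high neutrophil granule transcripts, and by this sum naïve replicate 3 lay at the top of the LPS range. Most of the sum on that array (Elane 11.83) and on the LPS arrays (11.48 to 12.10) was Elane. Ngp (6.98), S100a8 (10.40) and S100a9 (4.57) on naïve replicate 3 were above every LPS array (at most 2.81, 8.92 and 3.29). Camp, Ltf, Ly6g and Mpo were not. Of markers of other cells, dendritic cell markers summed to 16 to 16.92, nearly all of it Siglech (15.98 to 16.90 in both groups), while Xcr1 and Clec9a were above background on no array and Zbtb46 was called higher (6.23). T cell markers summed to 11.67 to 11.93 on naïve and 12.19 to 12.62 on LPS arrays, with Cd4 at 11.10 to 11.88, Lck called higher (4.21) and Cd2 called lower (at least 2.46-fold, being above background on no LPS array). NK cell markers summed to no more than 8.81, and both that were tested, Gzma (1.27) and Prf1 (0.77), were called higher. B cell markers summed to no more than 9.89 with no call. The part of other cell types in the results was not tested.

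**Figure D1:**
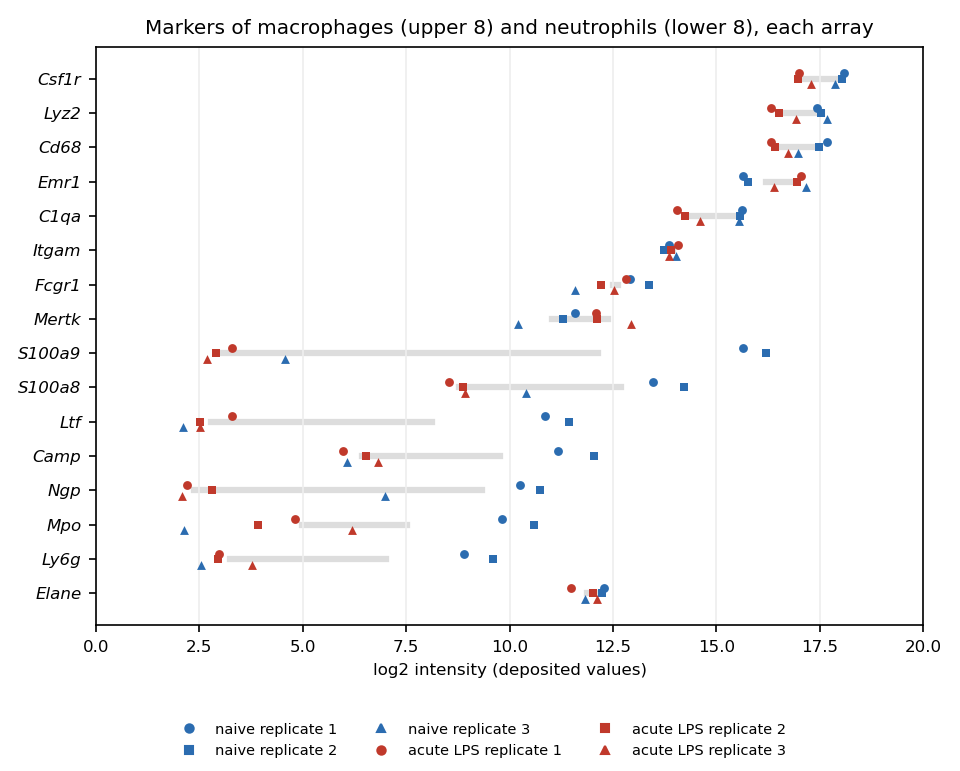
Deposited log2 intensity of 8 macrophage markers (upper rows) and 8 neutrophil markers (lower rows) on each naïve (blue) and acute LPS (red) array, with a grey bar joining the group means. The macrophage markers sat high in both groups, while most neutrophil markers were high on naïve replicates 1 and 2 only.

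Promoters of 5 genes that rose are shown first, because the response to LPS is carried by NF-κB, which binds kB sites, and by interferon factors, which bind paired GAAA repeats (the interferon-stimulated response element). Each is the 250 bases before the RefSeq transcription start in GRCm38.p6, on the strand of the gene, 5′ to 3′. Capitals mark a kB motif (GGGA, any 2 bases, TTCC) or the paired repeat (GAAA, any 2 bases, GAAA), read on either strand. Il6 and Nfkbia hold a kB motif, Ifit1 and Rsad2 the paired repeat, and Cxcl10 holds both. The windows are chr5:30012864-30013113 (+) for Il6, chr12:55492648-55492897 (-) for Nfkbia, chr5:92348890-92349139 (-) for Cxcl10, chr19:34640639-34640888 (+) for Ifit1 and chr12:26456453-26456702 (-) for Rsad2.
Il6: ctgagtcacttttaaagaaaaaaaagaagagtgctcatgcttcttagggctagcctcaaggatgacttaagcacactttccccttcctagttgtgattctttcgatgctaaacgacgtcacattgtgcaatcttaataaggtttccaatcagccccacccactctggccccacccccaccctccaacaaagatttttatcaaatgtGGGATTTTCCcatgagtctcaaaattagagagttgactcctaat
Nfkbia: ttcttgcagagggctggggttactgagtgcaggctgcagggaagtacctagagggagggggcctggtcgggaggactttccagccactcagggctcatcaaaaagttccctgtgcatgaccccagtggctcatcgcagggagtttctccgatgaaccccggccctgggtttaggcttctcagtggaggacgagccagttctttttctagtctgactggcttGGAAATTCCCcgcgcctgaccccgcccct
Cxcl10: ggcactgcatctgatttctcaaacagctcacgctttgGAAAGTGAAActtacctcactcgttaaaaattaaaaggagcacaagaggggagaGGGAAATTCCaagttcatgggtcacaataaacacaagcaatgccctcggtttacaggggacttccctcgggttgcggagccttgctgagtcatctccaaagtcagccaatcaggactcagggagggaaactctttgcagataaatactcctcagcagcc
Ifit1: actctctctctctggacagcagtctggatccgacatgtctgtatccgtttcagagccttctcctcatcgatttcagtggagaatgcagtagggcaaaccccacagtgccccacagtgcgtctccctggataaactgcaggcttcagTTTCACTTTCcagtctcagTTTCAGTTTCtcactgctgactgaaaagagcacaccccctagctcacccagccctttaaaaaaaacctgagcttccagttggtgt
Rsad2: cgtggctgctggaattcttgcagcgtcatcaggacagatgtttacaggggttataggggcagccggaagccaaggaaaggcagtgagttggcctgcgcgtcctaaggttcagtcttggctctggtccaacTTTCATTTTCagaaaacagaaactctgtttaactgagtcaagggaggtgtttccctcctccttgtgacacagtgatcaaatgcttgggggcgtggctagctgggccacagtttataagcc

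The first base of the kB motif lies at position -44 in Il6, -29 in Nfkbia and -159 in Cxcl10, counted back from the start. The paired repeat begins at -213 in Cxcl10, at -104 and -85 in Ifit1, and at -120 in Rsad2. Among 32851 such windows of the mouse genome, 1.21% hold the kB motif, 2.98% the paired repeat and 6.75% TGANTCA, an AP-1 motif. Of 12862 windows of genes tested here, 1.3% held the kB motif, 2.85% the paired repeat and 5.05% the AP-1 motif. Of 1509 windows of genes called higher after LPS, 2.25% held the kB motif, 5.9% the paired repeat and 6.56% the AP-1 motif. Of 2404 windows of genes called lower the shares were 1.33%, 1.96% and 4.24%. In the interferon-stimulated list described below, 14 of 31 windows (45.2%) held the paired repeat, and in the chemokine list 4 of 14 (28.6%) held the kB motif. These are descriptions of letters in a short window, with no test, and the motifs can overlap.

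Over all probes, acute LPS was accompanied by change in both directions. Of 29933 probes tested, 7918 were called (26.5%), with 3955 higher (13.2%) and 3963 lower (13.2%), in 6572 genes. The rises were larger than the falls: 308 probes rose by at least 4 log2 units and 53 fell by that much. The groups did not overlap for 47.7% of the tested probes. For 342 probes called higher no naïve array was above background, and for 240 called lower no LPS array was. At an unadjusted p below 0.05 there were 12230 probes. With median scaling of the arrays in place of quantile normalization the median change of all tested probes moved from -0.01 to 0.257, and 3336 probes were called, 70.2% of them higher against 49.9% in the main values. Without naïve replicate 3, 10963 probes were called (5040 higher, 5923 lower), of which 7606 were among the 7918. Naïve replicate 3 was the highest naïve array for 31.9% of probes called higher and the lowest for 60.4% of those called lower.

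**Figure D2:**
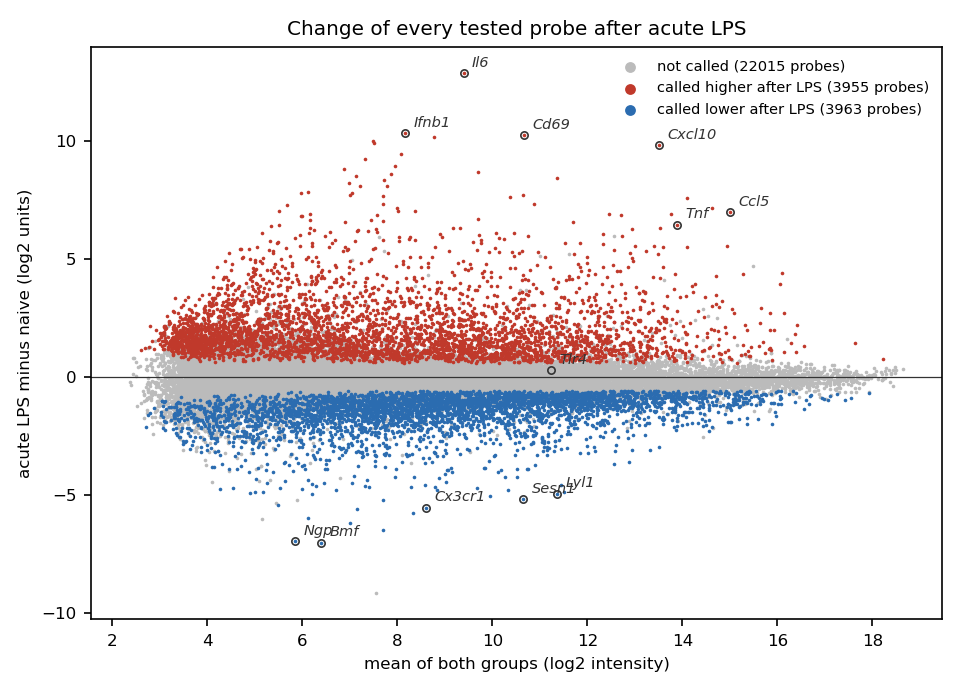
Change after acute LPS (log2 units, y axis) against the mean of both groups (log2 intensity, x axis) for 29933 tested probes, red where called higher, blue where called lower and grey where not called. Il6 rose by 12.89 log2 units in these values, and the largest rises exceed the largest falls of called probes.

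Cytokine genes held some of the largest rises. Of 27 cytokine genes listed, 24 were tested, 21 were called higher, none was called lower and 3 were not called (Osm, Il1rn and Tgfb1), and their median change was 4.23 log2 units. Over the 21389 genes tested the median change was -0.04, with 12.7% called higher and 14.1% lower. Of the 24, 8 passed the background filter on the LPS arrays alone (Csf2, Edn1, Ifnb1, Il12a, Il12b, Il1a, Il33 and Il6) and so had to be brighter there. Of the 16 above background in both groups, 13 were called higher. Il23a, Csf3 and Lif were not tested.

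Il6 encodes interleukin-6, a cytokine of the acute phase response. Its probe (mm9 chr5:30346367-30346426, + strand) read 2.84, 2.47 and 3.55 on the naïve arrays and 16.11, 15.77 and 15.64 on the LPS arrays. The naïve signal was above background on 1 of 3 arrays, and the rise was 12.89 ± 0.32 (adjusted p = 0.000102). Ifnb1, the interferon β gene (mm9 chr4:88168023-88168082, - strand), read 3.13, 2.95 and 2.93 before and 13.99, 13.86 and 12.14 after LPS. LPS replicate 3 was the lowest of the stimulated cultures, yet the groups were far apart, and the rise was 10.33 ± 0.50 (adjusted p = 0.00028). Il12b, the p40 subunit shared by IL-12 and IL-23, went from 3.02, 3.88 and 3.11 to 12.69, 12.89 and 12.84, a rise of 9.47 ± 0.27 (adjusted p = 0.000102). Its LPS replicates lay within 0.3 log2 units of each other. For genes this dim in naïve cells the size of the rise depends on the background correction: with normexp it was 9.68 for Il6, 7.17 for Ifnb1 and 6.54 for Il12b. Of 20 called genes above background on at most 1 array of the dimmer group, all 20 moved by over 1.5-fold with normexp. Over all 215 called genes on the lists or named, 49 moved that far, some of them above background on 2 or 3 arrays of both groups. The normexp value is given below for only some of the 49. The p35 subunit Il12a was not well above background on any naïve array and rose at least 7.76-fold. Such a bound sets the mean of the bright group against, on each array of the dim group, the lowest signal of any probe well above background or the dim probe's own signal if that is higher. It is a bound for the deposited values only, since with normexp the Il12a rise was 0.662 log2 units.

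Tnf, an early product of activated macrophages, read 8.998, 9.53 and 13.44 on the naïve arrays and 16.78, 17.00 and 17.57 on the LPS arrays. Naïve replicate 3 was therefore about 4 log2 units above the other naïve cultures while still below every LPS array. The change was 6.46 ± 1.14 (adjusted p = 0.00995) with it and 7.85 (adjusted p = 8.06e-05) without it. Il10, which restrains macrophage activation, had the same layout, with 4.73, 5.49 and 8.45 before and 11.12, 10.15 and 10.14 after LPS (change 4.25 ± 0.95, adjusted p = 0.0215, and 5.36 without naïve replicate 3). Il10 was no longer called with the replicate block or when naïve replicate 2 or any LPS array was left out. Il1b, the precursor of the inflammasome product IL-1β, went from 4.70, 6.71 and 6.64 to 12.34, 12.27 and 12.39, a rise of 6.32 ± 0.55 (adjusted p = 0.00118).

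Other cytokine genes called higher ranged from Edn1, the precursor of the vasoconstrictor endothelin-1 (8.80 ± 0.25), down to Csf2, the GM-CSF gene (1.63), whose call was lost in 5 of 16 alternatives. Edn1 was above background on 1 of 3 naïve arrays, and with normexp its rise was 5.25. Csf2 was above background on 1 naïve and 2 LPS arrays, and its rise was 0.355 with normexp. The TNF family members Tnfsf15 (7.69, and 8.52 without naïve replicate 3) and Tnfsf10, known as TRAIL (7.18, and 6.46 without it), rose as well. Il33 had no naïve array above background and read 10.00, 9.08 and 6.49 after LPS, a rise of at least 70.8-fold with a spread of over 3 log2 units among the stimulated cultures. With normexp its rise was 2.9 log2 units. Il1rn, the IL-1 receptor antagonist, did not pass the test, with a difference of 0.74 ± 0.46 (adjusted p = 0.265), and Tgfb1 differed by -0.11 ± 0.21 (adjusted p = 0.741). Naïve replicate 3 was the highest naïve array for 9 of the 21, against 31.9% of all probes called higher, and the lowest for another 9. Without it 21 cytokine genes were again called higher.

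**Figure D3:**
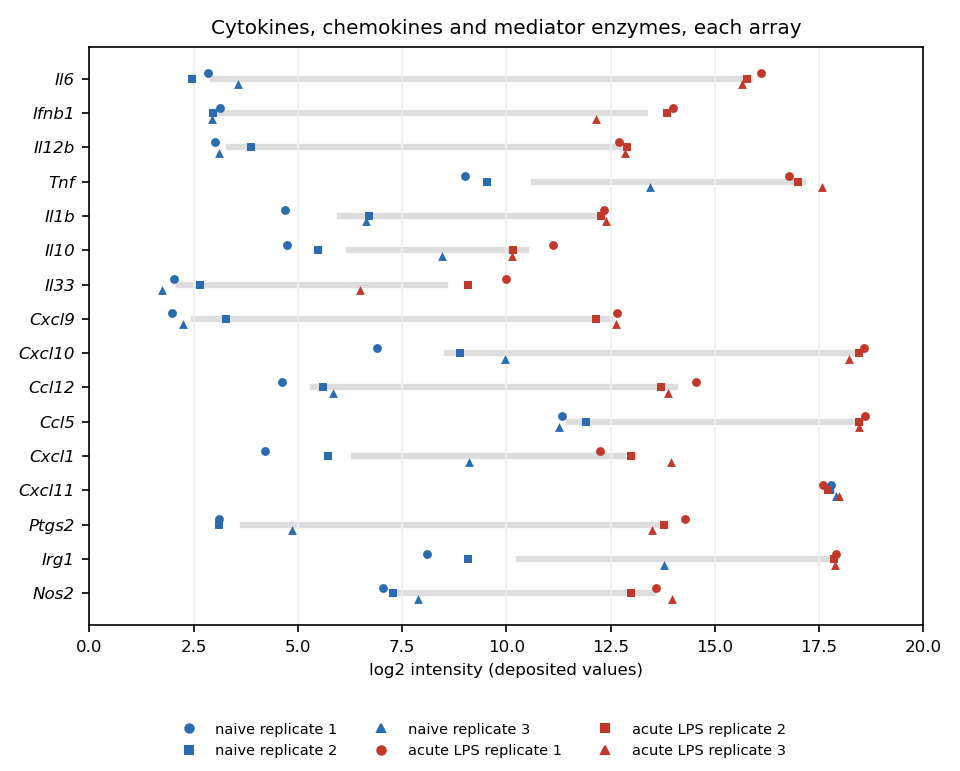
Deposited log2 intensity of 16 cytokine, chemokine and mediator enzyme genes on each naïve (blue) and acute LPS (red) array, with a grey bar joining the group means. The groups were separate for every gene shown except Cxcl11, and naïve replicate 3 (blue triangle) was the naïve array nearest to the LPS arrays for Tnf, Il10, Cxcl1, Irg1 and Ptgs2. It was also the nearest for Cxcl10, Nos2, Ccl12 and Il6.

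Most chemokine genes rose. Of 24 listed, 22 were tested, 16 were called higher (72.7%) and 2 lower (9.09%), with a median change of 3.85 log2 units. Among all genes tested 12.7% were called higher and 14.1% lower. Passing on the LPS arrays alone applied to 4 (Ccl17, Cxcl3, Cxcl5 and Cxcl9), and on the naïve arrays alone to Ccl24. Ccl22 and Cxcl12 were not tested. Cxcl10, a ligand of CXCR3 that attracts T cells, read 6.89, 8.89 and 9.96 on the naïve arrays and 18.58, 18.46 and 18.22 on the LPS arrays. The naïve cultures spread over 3 log2 units, all far below the stimulated cultures, and the rise was 9.84 ± 0.74 (adjusted p = 0.000775), or 10.5 without naïve replicate 3. Cxcl9, another CXCR3 ligand, was not well above background on any naïve array and rose at least 908-fold, while with normexp its rise was 6.42 log2 units. Ccl5 (RANTES) went from 11.33, 11.92 and 11.27 to 18.60, 18.45 and 18.45, a rise of 6.99 ± 0.23 (adjusted p = 0.000142).

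The monocyte attractants Ccl12 (8.69 ± 0.39), Ccl7 (6.92 ± 0.63) and Ccl2 (5.51 ± 0.47) rose together with the neutrophil attractants Cxcl1 (6.71 ± 1.22), Cxcl2 (6.08 ± 1.16) and Cxcl3 (5.44 ± 0.69). For Cxcl1 the naïve arrays read 4.22, 5.73 and 9.10 and the LPS arrays 12.25, 13.00 and 13.94, so naïve replicate 3 again lay nearest to the LPS arrays. Without it the rises were 8.09 for Cxcl1, 7.44 for Cxcl2 and 6.20 for Cxcl3. Cxcl3 was above background on 1 of 3 naïve arrays, and its rise was 3.18 with normexp. The genes called lower were Cxcl14, which read 10.60, 9.53 and 7.82 before and 7.19, 6.21 and 7.00 after LPS, and Ccl24 (eotaxin-2), which was at least 2.69-fold lower and not well above background on any LPS array. With normexp the change of Ccl24 was -0.379 log2 units. The call of Cxcl14 was lost in 7 of 19 alternatives, among them leaving out any array but naïve replicate 3, without which the change was -3.27, and that of Ccl24 in 4. Pf4, a platelet factor that marrow cultures also express, read 16.65, 17.05 and 13.47 against 12.67, 12.90 and 13.89. Its groups overlapped through naïve replicate 3, and its difference of -2.57 ± 0.96 did not pass the test (adjusted p = 0.0945), while without that array it was called lower (-3.70, adjusted p = 0.0011). Cxcl11 was high in both groups (17.75 to 17.91 and 17.60 to 17.97) and its difference was -0.05 ± 0.19.

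Nearly every interferon-stimulated gene listed rose. All 36 listed were tested and above background in both groups. Of these, 32 were called higher (88.9%, against 12.7% over all genes tested) and none lower, and the median change was 3.77 log2 units. Over the alternatives the count stayed between 31 and 35. Rsad2 (viperin), an antiviral radical SAM enzyme, read 11.15, 11.50 and 10.47 on the naïve arrays and 18.37, 18.27 and 18.03 on the LPS arrays, a rise of 7.18 ± 0.30 (adjusted p = 0.000204). Ifit1, which binds viral RNA lacking cap methylation, went from 10.41, 10.50 and 10.24 to 17.06, 16.83 and 16.20, a rise of 6.31 ± 0.27 (adjusted p = 0.000204). Neither gene had overlapping groups, and replicate spread was small beside the change.

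The largest rise in the list was that of Gbp5 (8.44 ± 0.31), a guanylate-binding protein linked to inflammasome activation, on the brighter of its probes (a second probe rose by 2.65 ± 0.53), followed by Rsad2 and its genomic neighbour Cmpk2, a nucleotide kinase (6.91 ± 0.22). Mx2 (6.04 ± 0.17) and Mx1 (5.35 ± 0.32) encode antiviral GTPases, and Oasl1 (5.55 ± 0.37) a repressor of Irf7 translation. Isg15, the ubiquitin-like modifier (3.92 ± 0.21), and Usp18, the protease that removes it (3.71 ± 0.17), rose side by side. The RNA sensor genes Ifih1 (MDA5, 4.64 ± 0.25) and Ddx58 (RIG-I, 2.34 ± 0.20) and the DNA sensor gene Cgas, listed as E330016A19Rik (2.17 ± 0.20), were also called higher.

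Irf7, Oas3 and Bst2 were among those not called. Irf7, the amplifier of type I interferon transcription, read 11.74, 12.55 and 10.37 before and 13.17, 12.98 and 13.77 after LPS. All LPS arrays lay above all naïve arrays, and the difference was 1.76 ± 0.56 (adjusted p = 0.0629). In contrast to its place for Tnf and Il10, naïve replicate 3 was the lowest naïve array for 22 of the 32 genes called higher. Without it 33 were called and Irf7 was among them (1.17, adjusted p = 0.04). The arrays of the other ligands share the naïve arrays with this comparison, so each has its own values only: the median change of the 36 genes was 3.25 for acute Poly(I:C), 1.54 for CpG and -0.292 for Pam3CSK4.

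**Figure D4:**
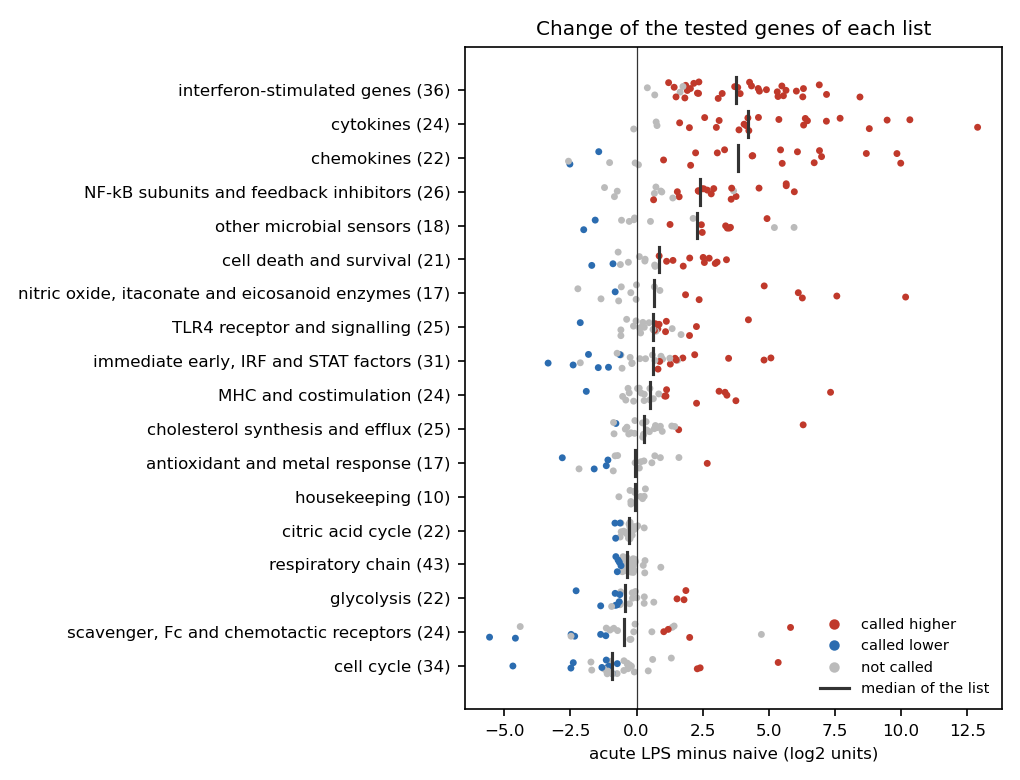
Change after acute LPS (log2 units, x axis) of every tested gene in 18 lists (rows, with the number tested), red where called higher, blue where called lower and grey where not called, with the list median as a black line. Interferon-stimulated, cytokine and chemokine genes lay furthest to the right. The medians of glycolysis, citric acid cycle, respiratory chain, antioxidant and housekeeping genes are below 0 here and above 0 with median scaling.

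Most receptor and proximal signalling genes of the TLR4 pathway did not pass the test. Of 25 listed and tested, 9 were called higher (36%), 1 was called lower (4%) and 15 were not called. Among all genes tested the shares were 12.7% and 14.1%. The median change of the list was 0.624 log2 units. Tlr4 itself read 11.43, 11.29 and 10.58 on the naïve arrays and 11.69, 11.49 and 11 on the LPS arrays. The groups overlapped, and the difference of 0.29 ± 0.31 did not pass the test (adjusted p = 0.508). Ly96, the MD-2 gene, differed by 0.74 ± 0.29 (adjusted p = 0.112). Cd14 read 15.39, 15.49 and 15.71 before and 16.22, 16.04 and 16.48 after LPS and was called higher (0.71 ± 0.20, adjusted p = 0.0456), a call lost under 10 of 19 alternatives, median scaling and the replicate block among them.

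Among the adaptors, Myd88 went from 11.50, 11.71 and 12.34 to 14.04, 13.94 and 14.37, a rise of 2.27 ± 0.28 (adjusted p = 0.0031), and Ticam2 (TRAM) rose by 2.00 ± 0.53 (adjusted p = 0.0366), a call lost in 7 of 18 alternatives. The Ticam2 rise was 1.07 with normexp. Ticam1 (TRIF) differed by 0.24 ± 0.23 and Traf6 by 0.15 ± 0.34, neither of which passed the test. Peli1, an E3 ligase of the TRIF and MyD88 branches, showed the largest rise of the list, 4.23 ± 0.21. Tab1, a subunit of the TAK1 kinase complex, was the gene called lower. Its arrays read 12.11, 11.72 and 11.77 against 9.58, 9.48 and 10.17, a change of -2.13 ± 0.25 (adjusted p = 0.00291) that was not called with median scaling.

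Most genes of NF-κB subunits and of inhibitors of the pathway rose. Of 26 listed and tested, 17 were called higher (65.4%, against 12.7% over all genes tested) and none lower, with a median change of 2.41 log2 units. Rel and Dusp5 passed the background filter on the LPS arrays alone and so had to be brighter there. Of the 24 above background in both groups, 16 were called higher. Nfkbia (IκBα), which retains NF-κB in the cytoplasm and is itself an NF-κB target, read 13.37, 13.69 and 15.53 on the naïve arrays and 17.11, 17.01 and 17.22 on the LPS arrays. Naïve replicate 3 was nearer to the LPS arrays than to the other naïve cultures, and the rise was 2.92 ± 0.56 (adjusted p = 0.0128), or 3.58 without it. Tnfaip3 (A20), a ubiquitin-editing brake on the pathway, rose by 3.58 ± 0.44 (adjusted p = 0.00309), and by 4.06 without naïve replicate 3. Socs3, an inhibitor of cytokine receptor signalling, read 7.14, 7.82 and 11.15 against 14.32, 14.24 and 14.52, a rise of 5.66 ± 1.00 (adjusted p = 0.00999), or 6.88 without naïve replicate 3.

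Socs1 (5.96 ± 0.26) and Dusp2, a MAP kinase phosphatase (5.66 ± 0.31), were among the largest rises of the list. The subunit genes Rel (4.63 ± 0.52), Nfkb2 (2.54 ± 0.36), Nfkb1 (2.35 ± 0.29) and Relb (1.54 ± 0.32) were called higher. Rel was above background on 1 of 3 naïve arrays, and its rise was 2.01 with normexp. Rela rose by 0.65 ± 0.18 (adjusted p = 0.0421), and 10 of 19 alternatives did not call it. Nfkbiz (IκBζ), a nuclear cofactor needed for Il6 transcription, read 6.78, 7.63 and 11.81 against 12.17, 12.50 and 12.55. It was not called with all arrays (3.67 ± 1.25, adjusted p = 0.0741) and was called without naïve replicate 3 (5.2, adjusted p = 0.00019). For 13 of the 17 genes called higher, naïve replicate 3 was the highest naïve array, against 31.9% of all probes called higher. Without that array 21 of the 26 were called higher and 1 lower.

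Transcription factors downstream of TLR4 went both ways. Of 31 tested immediate early, IRF and STAT factor genes, 10 were called higher and 6 lower (median change 0.606). The shares were 32.3% and 19.4%, against 12.7% and 14.1% over all genes tested. Irf1, an early interferon regulatory factor, went from 12.74, 13.10 and 13.03 to 16.25, 16.59 and 16.48, a rise of 3.48 ± 0.20 (adjusted p = 0.000399). Maff (5.08 ± 0.26) and Batf2 (4.82 ± 0.21), bZIP factors, showed larger rises. At 4 h Fos was lower, with 11.52, 12.02 and 10.46 before and 9.78, 9.64 and 9.13 after LPS (-1.81 ± 0.43, adjusted p = 0.0254), a call lost in 6 of 19 alternatives, median scaling among them. Fosl2 (-2.40 ± 0.40) and the zinc finger factor Egr2 (-3.34 ± 0.38) were also called lower. A second, dimmer probe of Fosl2 differed by 1.54 and was not called. Egr1, Atf3 and Irf8 were not called, with differences of 1.26 ± 0.55, 0.93 ± 0.27 and 0.99 ± 0.33, and in each the LPS arrays lay above the naïve arrays. Without naïve replicate 3, Egr1 differed by 0.621 and was again not called, and Irf8 was called higher (0.635, adjusted p = 0.0485).

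Sensors of other microbial products were uneven. Of 18 tested, 8 were called higher (44.4%) and 2 lower (11.1%), against 12.7% and 14.1% over all genes tested. The median change of the list was 2.3 log2 units. Tlr2, the lipopeptide receptor, read 11.66, 12.17 and 13.32 on the naïve arrays and 14.88, 14.81 and 14.82 on the LPS arrays, a rise of 2.45 ± 0.42 (adjusted p = 0.00912). Tlr3, the receptor of double-stranded RNA, rose by 4.93 ± 0.73 (adjusted p = 0.00568; 4.06 without naïve replicate 3), and Nod2 and Nod1, receptors of peptidoglycan fragments, by 3.55 ± 0.23 and 3.51 ± 0.20. Nlrp3, the inflammasome sensor, went from 5.68, 5.45 and 5.27 to 8.48, 8.54 and 9.48 (3.37 ± 0.32, adjusted p = 0.00145). The rises of Tlr3 and Nlrp3 were 2.99 and 2.23 with normexp. Clec4e (Mincle) rose by 3.43 ± 0.85, a call lost when any array but naïve replicate 3 was left out (4.45 without that array).

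Tlr9, the receptor of CpG DNA, differed by -0.28 ± 0.27 and did not pass the test, while Tlr13, which senses bacterial ribosomal RNA, fell by 2.00 on the log2 scale (SE 0.33, adjusted p = 0.00774), a call lost with median scaling. The β-glucan receptor Clec7a (dectin-1) was called lower as well (-1.56 ± 0.43), a call lost in 9 of 19 alternatives, median scaling and the replicate block among them. Fpr1 and Fpr2, receptors of formylated peptides, read 6.69, 7.67 and 14.36 and 6.54, 7.62 and 12.88 on the naïve arrays. With 15.16 to 15.72 and 13.93 to 14.47 on the LPS arrays, naïve replicate 3 lay close to the stimulated cultures, and neither gene was called with all arrays (adjusted p = 0.0646 and 0.0528). Without that array both were called higher, Fpr1 by 8.35 and Fpr2 by 7.14.

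Enzymes of inflammatory mediator synthesis held some of the largest rises. Of 17 tested (median change 0.675), 7 were called higher (41.2%) and 1 lower (5.88%), against 12.7% and 14.1% over all genes tested. Ptgs2 (COX-2), which makes prostaglandin precursors, read 3.1, 3.1 and 4.86 before and 14.28, 13.79 and 13.50 after LPS, a rise of 10.17 ± 0.52 (adjusted p = 0.000324). It was above background on 1 of 3 naïve arrays, and the rise was 10.8 without naïve replicate 3 and 7.48 with normexp. Nos2, the inducible nitric oxide synthase, went from 7.05, 7.28 and 7.88 to 13.58, 12.99 and 13.98 (6.11 ± 0.34, adjusted p = 0.000378). Irg1 (Acod1), which makes itaconate, read 8.09, 9.08 and 13.77 against 17.91, 17.86 and 17.87. The LPS cultures agreed within 0.05 log2 units while the naïve cultures spread over 5, and the rise was 7.57 ± 1.40 (adjusted p = 0.0115) with naïve replicate 3 and 9.30 (adjusted p = 7.12e-05) without it.

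The other genes of the list called higher were Slc7a2, an arginine transporter (4.83 ± 0.61, and 4.11 without naïve replicate 3), Gch1, the first enzyme of tetrahydrobiopterin synthesis (2.37 ± 0.29), Ass1, which recycles citrulline to arginine (1.85 ± 0.23), and Hdc, which makes histamine (6.27 ± 0.96, and 5.12 without that array). The rises of Slc7a2 and Hdc were 3.12 and 4.18 with normexp. Ptgs1 (COX-1) read 12.61, 12.82 and 8.96 against 9.74, 8.70 and 9.29, and was not called (-2.22 ± 1.03, adjusted p = 0.159). Without naïve replicate 3 it was called lower (-3.47, adjusted p = 0.000743). Arg1 and Ido1 were not tested.

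Genes of antigen presentation and costimulation were split. Of 24 tested (median change 0.505), 9 were called higher (37.5%) and 1 lower (4.17%), against 12.7% and 14.1% over all genes tested. Cd40, the receptor of T cell CD40 ligand, went from 6.10, 6.91 and 8.65 to 14.62, 14.36 and 14.68 (7.33 ± 0.62, adjusted p = 0.00114). Icam1 (3.76 ± 0.65), Cd274, the PD-L1 gene (3.42 ± 0.29), and Cd86 (3.35 ± 0.68) were called higher. The rises were 8.05 for Cd40, 4.51 for Icam1 and 2.72 for Cd86 without naïve replicate 3. Tap1, a peptide transporter of the class I pathway, rose by 2.27 ± 0.34, and Nlrc5, the class I transactivator, by 3.12 ± 0.21. H2-K1 differed by -0.11 ± 0.19 and the class II transactivator Ciita by 0.04 ± 0.57 (0.683 without naïve replicate 3), neither of which passed the test. Cd80 had 2 tested probes called in opposite directions. The brighter read 11.57, 11.86 and 11.77 against 9.87, 9.85 and 9.78, and was not called with median scaling.

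Survival and death genes changed mainly upwards. Of 21 tested (median change 0.856), 11 were called higher (52.4%) and 2 lower (9.52%), against 12.7% and 14.1% over all genes tested. Cflar (c-FLIP), an inhibitor of caspase-8, rose by 3.40 ± 0.39, Casp4 (caspase-11), the cytosolic LPS sensor, by 2.75 ± 0.42, and Mlkl, the executioner of necroptosis, by 2.56 ± 0.20. Casp1 went from 13.72, 13.88 and 14.06 to 15.09, 15.03 and 14.95 (1.14 ± 0.18, adjusted p = 0.00726), a call lost with median scaling. Mcl1 (-0.89 ± 0.22) and Gadd45a (-1.69 ± 0.43) were called lower, calls that 9 and 6 of 19 alternatives did not make, median scaling among them. A second probe of Mcl1 differed by -0.17 and was not called.

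The largest falls of called genes were found mostly outside the lists of immune mediators. Bmf, a BH3-only promoter of apoptosis (mm9 chr2:118354496-118354555, - strand), read 10.68, 10.61 and 8.44 on the naïve arrays. It was not well above background on any LPS array and was at least 131-fold lower in the deposited values (adjusted p = 0.00125). With normexp its change was -3.88 log2 units. Angptl4, an inhibitor of lipoprotein lipase, read 12.62, 12.37 and 7.88 before and 4.03, 4.40 and 4.92 after LPS (-6.50 ± 1.25, adjusted p = 0.0129), a call lost without LPS replicate 1. The change was -8.04 without naïve replicate 3 and -4.59 with normexp. Frat1, a GSK-3 binding protein, and Galnt9, a glycosyltransferase, were at least 43.3-fold and 29.8-fold lower. With normexp they changed by -2.45 and -1.94 log2 units.

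Some falls had tight replicates. Lyl1, a haematopoietic basic helix-loop-helix factor, read 13.94, 13.82 and 13.77 against 8.56, 9.04 and 9.06 (-4.96 ± 0.21, adjusted p = 0.000204). Irf2bp2, a transcriptional corepressor, went from 14.02, 13.95 and 13.92 to 9.38, 8.85 and 8.95 (-4.90 ± 0.21, adjusted p = 0.000204). Sesn1, a stress-induced regulator of mTORC1, fell from 13.41, 13.50 and 12.83 to 8.10, 8.47 and 7.58 (-5.2 ± 0.31, adjusted p = 0.000454). In these 3 genes naïve replicate 3 lay within 0.7 log2 units of the other naïve cultures, and the groups were far apart.

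**Figure D5:**
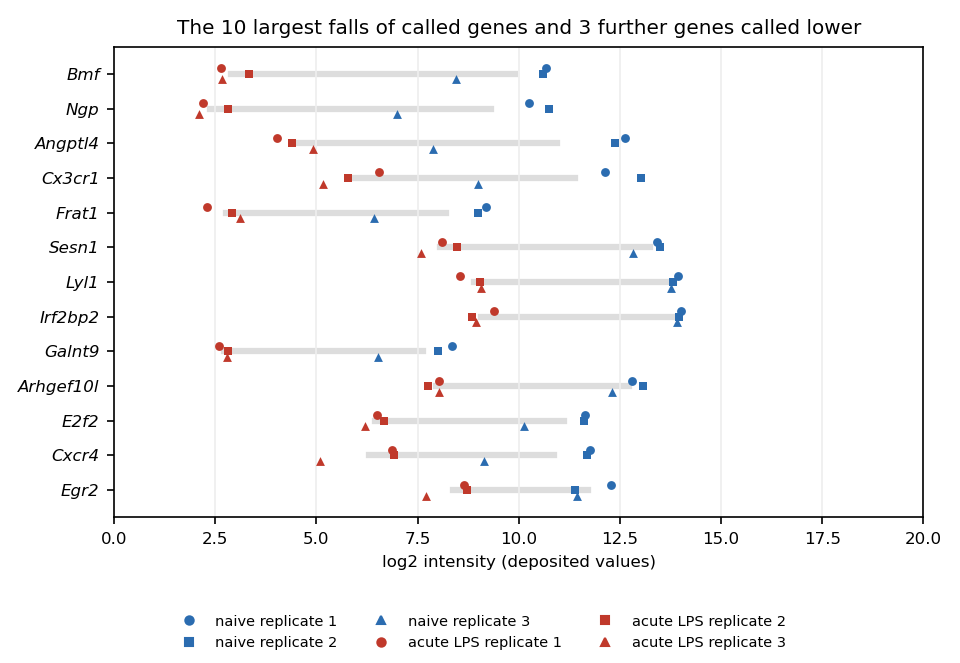
Deposited log2 intensity of the 10 called genes with the largest falls, and of E2f2, Cxcr4 and Egr2, on each naïve (blue) and acute LPS (red) array, with a grey bar joining the group means. All naïve arrays lay above all LPS arrays, and naïve replicate 3 was the lowest naïve array except for Egr2, where replicates 2 and 3 were nearly equal.

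Ngp, a neutrophil granule protein gene, read 10.26, 10.74 and 6.98 on the naïve arrays, was not well above background on any LPS array and was at least 118-fold lower (adjusted p = 0.0046). With normexp its change was -3.54 log2 units. Ngp is a neutrophil marker, and the summed level of the 8 neutrophil markers, given above, was likewise highest on naïve replicates 1 and 2. S100a8 was also called lower, and the other 6 were not. Naïve replicate 3 lay far below naïve replicates 1 and 2 for Ltf (2.09 against 10.86 and 11.43) and Ly6g (2.54 against 8.91 and 9.60). The same held for Camp (6.08 against 11.17 and 12.03) and Mpo (2.14 against 9.82 and 10.60), but not for Elane. Calls of these markers without that array are not given here. S100a9 read 15.63, 16.20 and 4.57 against 2.69 to 3.29, a difference of -9.18 that exceeded every called fall and did not itself pass the test. In RNA of whole cultures, fewer cells of a type and less RNA per cell cannot be told apart, and the part of neutrophil content in these falls was not tested.

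Of 24 tested scavenger, Fc and chemotactic receptors, 4 were called higher and 6 lower, with a median change of -0.482. The shares were 16.7% and 25%, against 12.7% and 14.1% over all genes tested. In all 6 called lower, naïve replicate 3 was the lowest naïve array, as it was for 60.4% of all probes called lower. It was also the lowest for the summed neutrophil markers (16.17, 16.75 and 12.35), and the part of neutrophil content was not tested. Cx3cr1, the fractalkine receptor, read 12.14, 13.03 and 8.98 on the naïve arrays and 6.55, 5.78 and 5.16 on the LPS arrays (-5.55 ± 1.04, adjusted p = 0.0119), or -6.76 without naïve replicate 3. Cxcr4 (-4.58 ± 0.85, and -5.44 without it), the nucleotide receptors P2ry6 (-2.47 ± 0.20) and P2rx7 (-2.34 ± 0.23), and Trem2, a lipid-binding receptor (-1.16 ± 0.31, lost in 8 of 19 alternatives), were called lower. Ccr2, the receptor of CCL2, read 8.88, 9.46 and 4.23 and was not well above background on any LPS array. It was not called with all arrays (adjusted p = 0.0545) and was called without naïve replicate 3 (-6.04, adjusted p = 0.000139).

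Receptors that rose were Adora2a, an adenosine receptor (5.82 ± 0.26), Fcgr4 (2.01 ± 0.24), Msr1, scavenger receptor A (1.20 ± 0.17), and C5ar1 (1.03 ± 0.20), the calls of the last pair being lost with median scaling. The Adora2a rise was 4.07 with normexp. Marco, a scavenger receptor of bacterial particles, showed how far the naïve cultures differed, with 9.99, 11.42 and 17.97 against 17.68, 17.98 and 17.88. Naïve replicate 3 was at the level of the LPS arrays, and Marco was not called with it (4.72 ± 1.95, adjusted p = 0.122) but was without it (7.14, adjusted p = 0.000191).

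Of 34 cell cycle genes tested, 10 were called lower and 3 higher, with a median change of -0.916 log2 units. The shares were 29.4% and 8.82%, against 14.1% and 12.7% over all genes tested. With median scaling 3 were called lower and 3 higher, and the median was -0.573. E2f2, a factor of the G1 to S transition, read 11.63, 11.62 and 10.13 against 6.50, 6.66 and 6.20 (-4.67 ± 0.44, adjusted p = 0.00146). Cdc20, an activator of the anaphase-promoting complex (-2.48 ± 0.46), and Gmnn, the licensing inhibitor geminin (-2.39 ± 0.31), were called lower, and so was Ccnd1, cyclin D1 (-1.07 ± 0.25), though not in 8 of 19 alternatives. Cyclin genes did not move as one, since Ccnd2 rose by 5.35 ± 0.44 and Ccne1 by 2.40 ± 0.18. The inhibitor gene Cdkn1a (p21) went from 13.02, 13.07 and 12.95 to 15.11, 14.97 and 15.85 (2.30 ± 0.27, adjusted p = 0.00278). Mki67 differed by 0.61 ± 0.38 and was not called. Without naïve replicate 3, 21 genes were called lower.

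Metabolic lists showed small differences whose direction depended on the scaling. For glycolysis the median change was -0.43 with quantile normalization and 0.0743 with median scaling, and 3 of 22 genes were called higher and 7 lower. The shares were 13.6% and 31.8%, against 12.7% and 14.1% over all genes tested. The genes called higher were Hk2, hexokinase 2, which phosphorylates glucose (1.87 ± 0.41, lost in 5 of 19 alternatives), and the phosphofructokinase genes Pfkp (1.79 ± 0.23) and Pfkfb3 (1.53 ± 0.28), each on the brighter of its probes. Those called lower included Pfkfb4 (-2.28 ± 0.20), the lactate exporter Slc16a3 (-1.35 ± 0.28), Eno1 (-0.81 ± 0.18) and Ldha (-0.73 ± 0.18). Under median scaling the counts were 3 higher and 1 lower, and Ldha, Eno1 and Slc16a3 were among the lost calls. Slc2a1, the glucose transporter GLUT1, differed by -0.04 ± 0.27.

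Over all genes tested 14.1% were called lower. Citric acid cycle genes had a median of -0.293 (0.191 with median scaling) and 3 of 22 were called lower: Idh1, a cytosolic enzyme (-0.81 ± 0.24), Fh1 (-0.79 ± 0.22) and Sdhb (-0.62 ± 0.18). Respiratory chain genes had a median of -0.344 (0.225 with median scaling), with 5 of 43 called lower, among them Ndufb3 (-0.78 ± 0.17) and Ndufb9 (-0.73 ± 0.18). These shares, 13.6% and 11.6%, were below that over all genes, and with median scaling neither list had a call. Sdhb differed by -0.592 without naïve replicate 3 and was then not called. A second probe of Fh1 differed by -0.05 and a second probe of Sdhb by -0.41, and neither was called. The 10 housekeeping genes had a median of -0.0619 (0.381 with median scaling) and no calls. The antioxidant list had a median of -0.0535 (0.5 with median scaling), with 1 of 17 higher and 4 lower. The shares were 5.88% and 23.5%, against 12.7% and 14.1% over all genes tested. The gene called higher was the cystine transporter Slc7a11 (2.67 ± 0.28), and the iron exporter Slc40a1, ferroportin, was lower (-2.81 ± 0.67, lost in 6 of 19 alternatives, and -3.57 without naïve replicate 3). Hmox1, haem oxygenase 1, read 15.33, 15.98 and 15.88 against 13.52, 12.09 and 15.06 on its brighter probe, which was not called (-2.17 ± 0.72, adjusted p = 0.0685). Its other probe was called lower (-2.41, adjusted p = 0.048).

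Cholesterol genes gave 2 of 25 called higher and 1 lower (median change 0.271). The shares, 8% and 4%, were below the 12.7% and 14.1% over all genes tested. Ch25h, which makes 25-hydroxycholesterol, an antiviral oxysterol, went from 5.75, 4.93 and 7.82 to 12.92, 12.66 and 11.81 (6.30 ± 0.75, adjusted p = 0.00288), or 7.13 without naïve replicate 3. Insig1 rose by 1.59 ± 0.46, a call lost in 8 of 19 alternatives. Without naïve replicate 3, 11 of the 25 were called higher.

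Outside the lists, the largest rises included Cd69, an early activation receptor of leukocytes, and Serpina3g, a protease inhibitor of activated macrophages. Cd69 read 4.04, 4.70 and 7.92 on the naïve arrays and 15.95, 15.85 and 15.57 on the LPS arrays (10.24 ± 0.97, adjusted p = 0.00146), or 11.4 without naïve replicate 3. Serpina3g went from 2.99, 4.23 and 3.22 to 12.42, 12.31 and 12.58 (8.95 ± 0.35, adjusted p = 0.000159) and was above background on 1 of 3 naïve arrays, and with normexp the rise was 6.15.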

How the data were processed

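Per the file headers, each 8x60K Agilent array was read with Feature Extraction 10.7.3.1, and the deposited scanner intensity values hold each spot's signal, its local background and a flag for standing well above background. Per the methods, the authors background-corrected these by RMA, quantile normalized them and deposited log2 values, which run from 0.943 to 18.8. The arrays give no read depth, so their number limits the precision. Values made again from the scanner intensities differed by a median of 0.0354 log2 units, which checked the scale.

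The deposited log2 values of the 3 naïve and 3 acute LPS arrays were fitted with limma 3.58.1 (R 4.3.3) as 2 groups without a block, with p-values adjusted over all 29933 tested probes by Benjamini-Hochberg. The threshold on background removed probes dim in both groups. Members, gene lists and tests were chosen with earlier results of these data known. Named genes were the 10 largest rises and 10 largest falls of called genes with separate groups, the marked genes of each list, and up to 3 rises and 3 falls per list. Further list members were named after their values were seen. Alternatives covered background correction, scaling, filters, thresholds, blocks, the arrays fitted and each array left out. Probe positions are mm9 per the file headers, and which exon or UTR they lie in was not used here. Promoters came from RefSeq (GRCm38.p6), where 10194 tested genes had a window. Some list members are not reported here.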

Additional observations from a re-analysis of the deposited data

How the results depend on the processing

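The number of probes called (7918, 3955 higher and 3963 lower) fell by over 1.5 times, in total or in either direction, in some settings. The rise without naïve replicate 3 was under 1.5 times. With median scaling 3336 were called, 2343 higher and 993 lower. Among probes with an Ensembl transcript, which are fewer, 2498 were called higher. With 1 array left out the total ran from 4038 (without LPS acute replicate 2) to 10963 (without naïve replicate 3), the count higher from 2146 to 5040 and the count lower from 1892 to 5923. Without naïve replicate 2 and without LPS acute replicate 1 there were 4844 and 4443. The cause was not tested.

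The replicate number as a block gave 5778 calls (2961 higher, 2817 lower), of which 5351 were shared with the fit without the block. Deviations of same-numbered arrays correlated at 0.00873 to 0.0382 and those of all pairs at -0.0333 to 0.0382. With few arrays a group, and the groups on different slides and scan days, these values cannot decide whether same-numbered arrays shared marrow. Such sharing was not tested. A fit of all 9 groups gave 10274 calls, and 10438 with the slide as a random block. The other settings gave 5649 (no filter) to 8522 (intensity trend and robust prior). In no setting was a shared probe called in the opposite direction.

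Of 142 named genes, 108 were called, and 70 of these stayed called in every setting that gave a value, while 38 lost the call in at least 1. Of those not called, 14 were called in at least 1 setting. None of the called genes changed direction. Mcm2 lost it in 12 settings, Ndufa8 and Sdhb in 11 each, and Rela and Cd14 in 10 each. With 3 arrays a group and a naïve culture that stood apart, changes of genes that differ among naïve cultures (Marco, Ccr2, Fpr1) are poorly resolved. Dim probes give only a bound, which depends on the background correction.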
